A study of Mus musculus with 4 samples.

Results

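The acute phase genes described here were Saa1, Saa2, Saa3, Lcn2, Hp and Cp, 6 of the 20971 genes that could be named on the array. The list was selected on the ratios of these arrays, in which Saa1 was among the highest genes at 6 h, and on what the genes are known to do; every probe whose accession mapped to one of the symbols was taken, 7 of 39429 probes, each printed as 1 spot. The study used RAW 264.7 cells, a mouse macrophage-like line derived from BALB/c mice and transformed by Abelson leukaemia virus, which the labels list as BALB/c. Cells were left untreated or kept for 1, 4 or 6 h with Lactobacillus bulgaricus, a lactic acid bacterium of fermented milk, at a multiplicity of infection of 10, and all groups grew in the same serum-containing medium without antibiotics. RNA of 3 cultures per group was pooled in equal amounts before hybridisation. Each group therefore had 1 array, with its RNA in Cy5 against a Cy3 common reference described as a pool of the RNA of all groups.

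The acute phase response is the change in secreted proteins that follows infection or injury. The liver is its main source, and cytokines of the interleukin 6, interleukin 1 and tumour necrosis factor families drive it through STAT3, C/EBP and NF-kB factors. Macrophages, epithelia and neutrophils make some of the same proteins. Serum amyloid A proteins are small lipoprotein-bound proteins: in mice Saa1 and Saa2 are near-identical copies expressed in liver and gut epithelium, and Saa3 is the form known from macrophages and fat. Lcn2 codes for lipocalin 2, which binds bacterial siderophores and so withholds iron. Hp codes for haptoglobin, which captures free haemoglobin, and Cp for ceruloplasmin, a copper-carrying ferroxidase.

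Because each group had 1 array, the comparisons carry no test. Past the rule of size means that the log2 ratio of Cy5 over Cy3 differed by at least 1 between 2 arrays, and measured means that both dyes were well above background on the pair of arrays compared. Signals below are the scanner software's processed signals in intensity units, and ± marks that software's own error estimate for a spot, which holds no spread between cultures. Cy5 was well above background at 49.5% to 51.8% of spots per array, no spot was saturated, and no spot of the 7 probes was marked as an outlier. The 4 arrays shared 1 slide and lay on it in the order of the times, and the effects of place and time cannot be told apart. The 7 macrophage markers with a probe, among them Csf1r and Itgam, were well above background in Cy5 in untreated cells. At 6 h 6 of them were, as the Cy5 signal of Fcgr1 was 82.7 in untreated cells and 15.6 at 6 h.

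The start regions of the serum amyloid A genes show which members resemble each other, and are given here from RefSeq on GRCm38.p6, from 250 bases before to 50 bases after each gene's start. Capitals mark the match to the C/EBP motif TTGCNNAA on either strand. Saa1 lies at chr7:46742931-46743230 on the minus strand, Saa2 at chr7:46751583-46751882 on the plus strand and Saa3 at chr7:46715627-46715926 on the minus strand.
Saa1: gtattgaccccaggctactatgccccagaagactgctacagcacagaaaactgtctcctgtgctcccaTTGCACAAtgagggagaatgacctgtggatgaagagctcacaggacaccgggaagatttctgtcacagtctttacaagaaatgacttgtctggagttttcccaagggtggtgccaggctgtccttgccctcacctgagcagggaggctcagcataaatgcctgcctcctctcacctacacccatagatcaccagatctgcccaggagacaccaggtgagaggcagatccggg
Saa2: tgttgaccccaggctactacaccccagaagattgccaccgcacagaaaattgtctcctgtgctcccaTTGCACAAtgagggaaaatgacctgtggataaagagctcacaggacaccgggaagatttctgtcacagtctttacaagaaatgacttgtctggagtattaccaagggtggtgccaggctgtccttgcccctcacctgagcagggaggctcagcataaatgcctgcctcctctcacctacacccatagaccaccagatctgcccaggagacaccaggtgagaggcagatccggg
Saa3: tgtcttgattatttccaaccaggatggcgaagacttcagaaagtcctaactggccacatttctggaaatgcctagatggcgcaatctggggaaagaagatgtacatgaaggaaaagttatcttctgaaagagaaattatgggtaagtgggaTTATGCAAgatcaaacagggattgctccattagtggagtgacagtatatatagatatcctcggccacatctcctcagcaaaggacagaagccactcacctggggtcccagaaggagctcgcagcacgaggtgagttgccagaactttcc
The regions of Saa1 and Saa2 were identical at 95.3% of aligned positions, 287 of 301, whereas Saa1 and Saa3 were identical at 54.2%, as were Saa1 and the unrelated gene Lcn2. Counted from the gene's start, the C/EBP match began at -182 in Saa1, -183 in Saa2 and -99 in Saa3. The Lcn2 region and 1 of the 2 Cp regions held a match too, and 10.8% of 32851 such regions hold one. No region was available for Hp, and the matches of the near-identical Saa1 and Saa2 regions are not independent. None of the regions of these 5 genes held the STAT motif TTCNNNGAA or the NF-kB consensus used, on either strand, which 8.3% and 8.46% of all regions hold. Looser forms of these motifs were not counted, so this does not show that such sites are absent. The probe sequences were not used here. The RefSeq table lists Saa2 as an older name of Saa1 and Saa1 as an older name of Saa2, so the signals of this pair cannot be assigned to either copy with certainty.

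Saa1 was the measured member whose ratio rose past the rule of size, at 1 h and 6 h. Its Cy5 signal was 181 ± 18.4 in untreated cells, 974 ± 97.5 at 1 h, 522 ± 52.3 at 4 h and 2006 ± 201 at 6 h. The signal was thus lowest in untreated cells and highest at 6 h, with the 4 h array below the 1 h array. The Cy3 signal of the reference was 773 ± 77.9, 1352 ± 136, 1145 ± 115 and 903 ± 90.7 on the same arrays, a narrower range. After background correction and loess the log2 ratio was -1.45 in untreated cells, -0.33 at 1 h, -1.01 at 4 h and 0.90 at 6 h. In a culture read as bulk RNA, more cells with the transcript and more transcript per cell cannot be told apart.

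Against untreated cells the log2 ratio of Saa1 was higher by 1.13 at 1 h and by 2.35 at 6 h, past the rule of size at both times, and by 0.44 at 4 h, short of it. These correspond to ratios 2.18-fold, 5.11-fold and 1.36-fold those of untreated cells. The SD of replicate spots of like signal was 0.12, 0.11 and 0.12 for the 1 h, 6 h and 4 h differences, so each was more than that spot error. In the scanner software's own ratios the differences were 1.62 ± 0.35, 3.24 ± 0.36 and 0.96 ± 0.36 in the same order. In Cy5 alone, after normalization between arrays, they were 1.70, 2.69 and 0.94, and in the reference alone 0.57, 0.34 and 0.50. The reference thus moved the same way as Cy5 at each time and by less; the cause was not tested.

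The 4 levels of Saa1 ordered as 6 h, 1 h, 4 h and untreated from high to low. The 6 h ratio lay 1.23 above the 1 h ratio (log2), the 1 h ratio 0.69 above the 4 h ratio and the 4 h ratio 0.44 above untreated cells. The smallest of these steps was 3.8 times the replicate-spot SD. From 4 to 6 h the difference was 1.91, past the rule, and from 1 to 4 h it was -0.69, not past it. Counted from the highest measured gene, Saa1 had rank 29 at 1 h, with 10369 genes measured, rank 329 at 4 h, with 10339, and rank 3 at 6 h, with 10311. The members were picked with this ranking in view, so the ranks are a description.

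**Figure D1:**
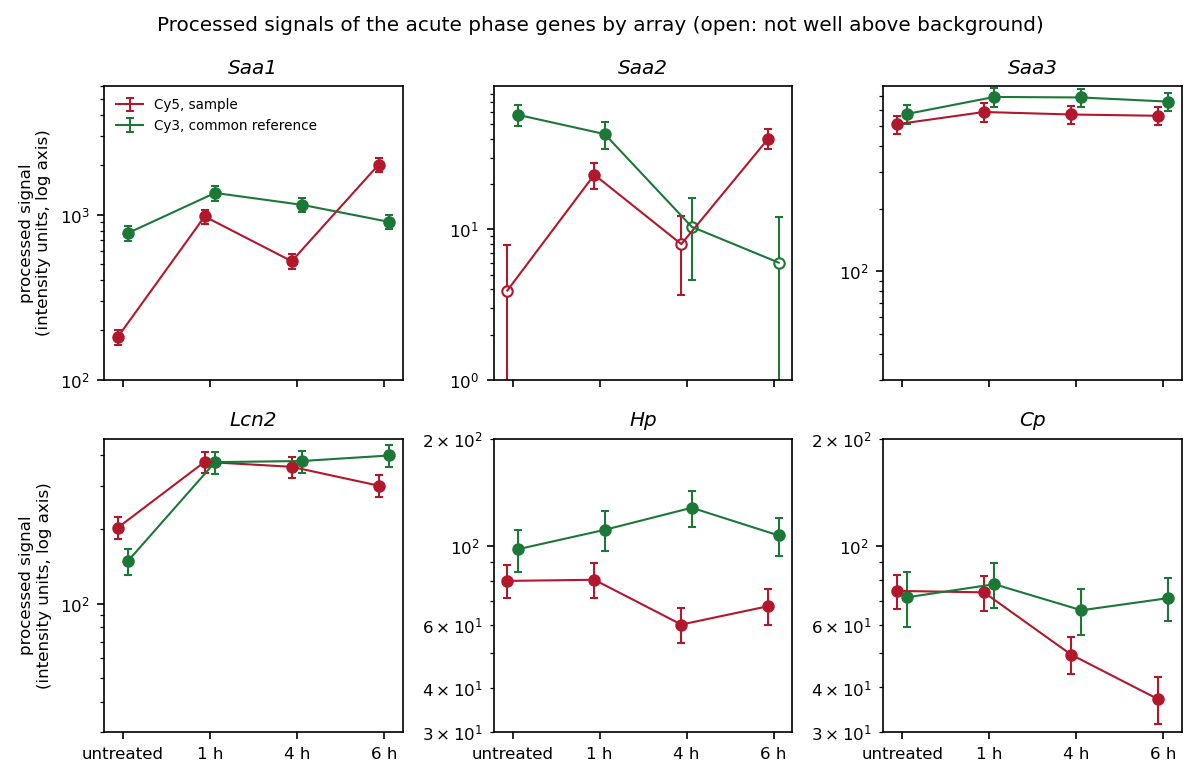
Processed Cy5 signal of the sample (red) and Cy3 signal of the common reference (green) of each gene in untreated cells and at 1 h, 4 h and 6 h, on log axes with a scale per panel; bars are the scanner software's error estimate and open points were not well above background. Saa1 moved in Cy5 from array to array more than in Cy3, Saa3 stayed level, and Lcn2 was lowest on the untreated array in both channels.

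Saa2 was near the detection limit throughout. Its Cy5 signal was 3.92 ± 3.91 in untreated cells, 23.1 ± 4.59 at 1 h, 7.98 ± 4.34 at 4 h and 40.2 ± 6.06 at 6 h, well above background at 1 h and 6 h only. The untreated and 4 h arrays, both below that limit, have no order between them. The reference signal was 57.8 ± 9.29, 43.0 ± 8.64, 10.4 ± 5.78 and 6.01 ± 6.00, not well above background at 4 and 6 h. As the reference is described as the same pool on every array, a ratio of Saa2 was not used. As bounds in Cy5, Saa2 was 1.07-fold higher at 1 h and 1.26-fold higher at 6 h than in untreated cells. The normalized log2 values were 6.64 at 1 h and 6.88 at 6 h against 6.54 in untreated cells. Both bounds, 0.09 and 0.34 in log2, equal the plain Cy5 differences and carry their spot error. The 1 h bound is close to the replicate-spot SD of ratio differences at like signal, 0.08. The bounds set the bright array against the higher of the dim spot's own value and the lowest probe well above background there. Neither reached 2-fold. Over measured ratios and such bounds together, 34 of 11140 genes (0.305%) did at 1 h and 54 of 11242 (0.48%) at 6 h. Over measured ratios alone the counts were 34 of 10369 and 47 of 10311. These shares thus rest mainly on measured ratios and are not a like measure for the Saa2 bounds. At signals this low the offset added in background correction can also shrink differences. With an offset of 10 the bounds were 0.08 at 1 h and 0.55 at 6 h in log2. In the scanner software's processed signals the bound at 6 h was 1.42 on the log2 scale, past 2-fold, and at 1 h it was 0.62.

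Saa3, the macrophage form, was expressed and level. Its Cy5 signal was 510 ± 51.1 in untreated cells and 584 ± 58.5, 568 ± 56.9 and 560 ± 56.1 at 1, 4 and 6 h. The error intervals of these 4 signals overlapped. The reference ran beside it at 572 ± 58.1, 690 ± 69.6, 686 ± 69.1 and 655 ± 66.0. The log2 difference from untreated cells was 0.03 at 1 h, -0.11 at 4 h and -0.05 at 6 h, each under the replicate-spot SD of 0.13, 0.13 and 0.12. The 2 members of the family measured on all arrays, Saa1 and Saa3, thus parted: on the ratio scale they differed from untreated cells by 2.35 and -0.05 at 6 h.

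Lcn2, the siderophore-binding lipocalin, gave opposite signs in the ratio and in Cy5. Its Cy5 signal was 203 ± 20.6 in untreated cells, 376 ± 37.8 at 1 h, 359 ± 36.1 at 4 h and 301 ± 30.4 at 6 h. All 3 treated arrays were brighter than the untreated one. The reference had 149 ± 17.8 beside untreated cells and 375 ± 38.5, 379 ± 38.9 and 399 ± 40.7 beside treated cells at 1, 4 and 6 h, so it was dim on the same array and by more, and the cause was not tested. The log2 ratio differed from untreated cells by -0.07 at 1 h, -0.22 at 4 h and -0.39 at 6 h, the last 3.0 times the replicate-spot SD of 0.13. In Cy5 alone the differences were 0.65, 0.56 and 0.47, and in the reference alone 0.72, 0.78 and 0.85. No value passed the rule in either direction, and the sign of the Lcn2 change depends on whether the reference is used.

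Hp and Cp, which the liver secretes in quantity, were dim. The Cy5 signal of Hp was 79.8 ± 8.46 in untreated cells and 80.4 ± 8.90, 60.2 ± 6.75 and 67.8 ± 7.73 at 1, 4 and 6 h, lowest at 4 h. Its log2 ratio differed by 0.02, -0.40 and -0.09, of which the 4 h value was 3.3 times the replicate-spot SD. The reference of Hp, 97.9 ± 13.1 on the untreated array, was highest at 4 h with 128 ± 15.0. In the scanner software's ratios the differences were -0.18 ± 0.36, -0.80 ± 0.37 and -0.37 ± 0.36. In Cy5 alone the 4 h difference was -0.17 and with an offset of 10 the ratio gave -0.61.

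Cp had 2 probes on the array. The probe A_55_P2087607 did not exceed background well in either channel of any array. The other, A_55_P2111302, had a Cy5 signal of 74.7 ± 8.28 in untreated cells and 74.0 ± 8.30, 49.5 ± 5.95 and 37.1 ± 5.59 at 1, 4 and 6 h, so the 4 and 6 h arrays were dimmer. Its reference stayed between 65.9 ± 9.89 and 78.0 ± 11.3. The log2 ratio differed by 0.08, -0.04 and -0.28 after loess and by -0.14 ± 0.40, -0.47 ± 0.42 and -1.0 ± 0.43 in the scanner software's ratios, which reach the rule of size at 6 h. At signals this low the offset of 50 that steadies the loess ratios can also shrink them. At 6 h the ratio gave -0.51 with an offset of 10 and -0.26 with no background correction. In Cy5 alone the 6 h difference was -0.13. The cause of the gap between these values and the scanner software's ratio was not tested.

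**Figure D2:**
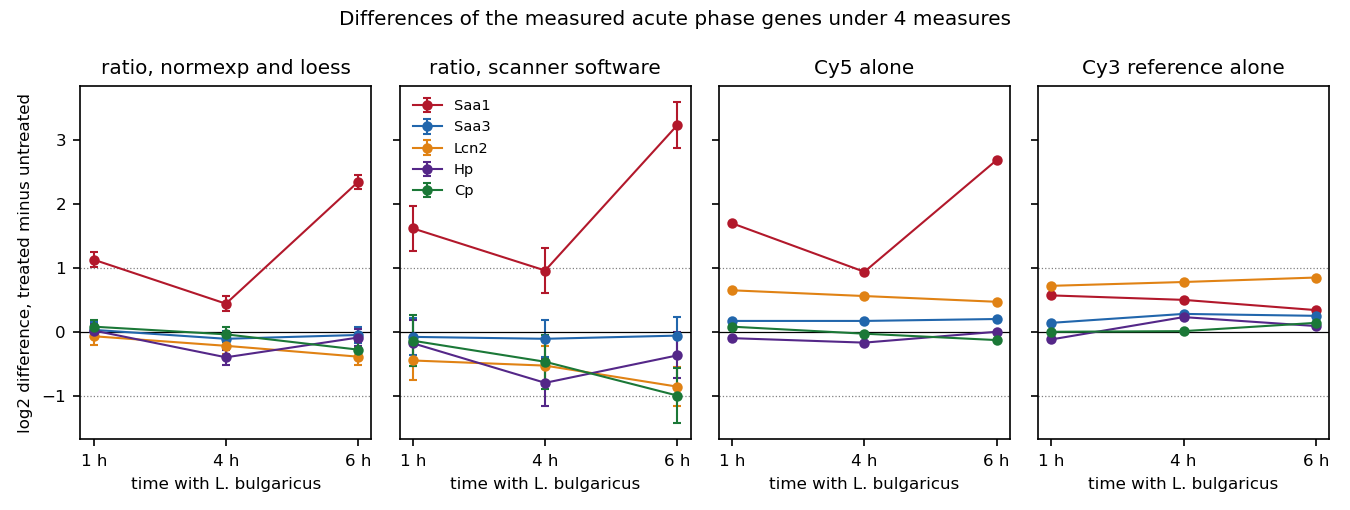
Log2 difference of the treated minus the untreated array at 1, 4 and 6 h (x axis) for Saa1, Saa3, Lcn2, Hp and Cp, as the loess ratio (bars, replicate-spot SD), the scanner software's ratio (bars, its error estimate), Cy5 alone and the Cy3 reference alone; dotted lines mark 1 and -1. Saa1 lies above the other 4 genes in the first 3 panels, and Lcn2 lies below 0 as a ratio and above 0 in Cy5 alone.

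Of the 6 members 5 were measured at each time. At 1 h Saa1 alone was higher and 0 lower, beside 0.328% and 0.0482% of 10369 genes. At 4 h 0 of 5 were higher and 0 lower, beside 0.242% and 0.213% of 10339 genes. At 6 h Saa1 alone was higher and 0 lower, beside 0.456% and 0.466% of 10311 genes. The median over the 5 was 0.03, -0.11 and -0.09 at 1, 4 and 6 h, next to 0.06, 0.00 and -0.01 over all measured genes. From 4 to 6 h Saa1 was again the 1 member higher, beside 0.19% of 10505 genes, and from 1 to 6 h likewise, beside 0.171% of 10496. Since Saa1 was known to be high when the list was drawn up, these counts describe the members and support nothing further.

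**Figure D3:**
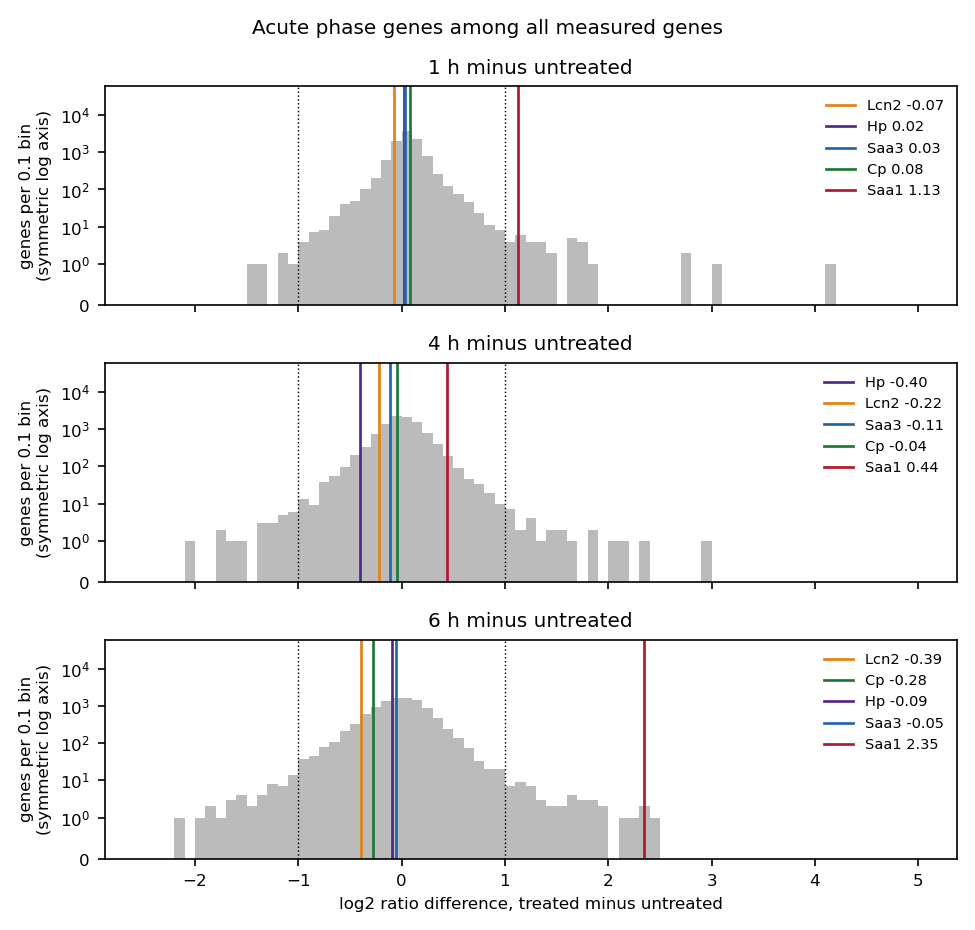
Number of measured genes per bin of 0.1 (y axis, symmetric log scale) against the log2 ratio difference from untreated cells at 1, 4 and 6 h, with a coloured line per acute phase gene and dotted lines at 1 and -1. Saa1 lies at 1.13, 0.44 and 2.35, while Saa3, Lcn2, Hp and Cp lie between -0.40 and 0.08, with Hp at 4 h at percentile 4.18 and Lcn2 at 6 h at percentile 8.92 of all genes.

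Kallikreins were among the genes with differences closest to those of Saa1. Nearness to its 3 differences was taken as Euclidean distance, among 9644 named genes over the 4 arrays. The 3 nearest were the tetraspanin Tspan1 (distance 0.49), the tissue kallikrein Klk1 (0.53) and its relative Klk1b5 (0.57). The median distance was 2.64. As most genes changed little, that median reflects the size of the Saa1 differences themselves and is no measure of how unusual the nearness is. The differences of the 3 nearest genes at 1, 4 and 6 h were 1.43, 0.79 and 2.19 for Tspan1, 1.00, 0.21 and 1.89 for Klk1, and 0.81, 0.24 and 1.93 for Klk1b5. In Cy5 alone they were 0.99, 0.44 and 1.79 for Tspan1, 1.12, 0.34 and 1.96 for Klk1, and 0.80, 0.30 and 1.51 for Klk1b5. The reference of Tspan1 differed by -0.44, -0.35 and -0.41 and that of Klk1b5 by -0.42 at 6 h, whereas that of Saa1 was higher at each time. Like Saa1, these 3 genes were lower at 4 h than at 1 h and highest at 6 h. They were picked for nearness to the Saa1 differences, so the like course follows from the choice and supports nothing further. The Cy5 signal of Klk1 was 211 in untreated cells and 638, 331 and 1211 at 1, 4 and 6 h. Sycn, which codes for a zymogen granule protein of the pancreas, had 54, 510, 26 and 967 on the same arrays. It showed the same up, down and up, with a 4 h signal below that of untreated cells.

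In the list of 6 exocrine gland markers 3 were measured, Klk1, Klk1b5 and Sycn. Of these, 2 were higher at 1 h, 0 at 4 h and 3 at 6 h, beside 0.328%, 0.242% and 0.456% of all genes. Klk1 at 1 h lay at the line, with 1.00. This list and the intestinal list below were chosen with values of these data known. Their counts therefore describe the listed genes and support nothing further. The summed Cy5 signal of the 6 exocrine gland genes was 380 in untreated cells and 1430, 516 and 2675 at 1, 4 and 6 h. The pancreatic enzyme genes Cpa1, Prss2 and Amy2a5 of the exocrine list never stood well above background in Cy5. Of 12 intestinal epithelium markers, all well above background in untreated cells, 2 were higher among the 12 measured at 1 h, 2 among 11 at 4 h and 3 among 10 at 6 h, beside 0.328%, 0.242% and 0.456% of all genes. Of the 3 at 6 h, Lypd8 differed by 1.82 in the ratio but by 0.17 in Cy5 alone and by -1.65 in the reference. Lct, which codes for lactase, decreased by 1.71 on the log2 scale at 4 h. The summed Cy5 signal of the 12 was 4734, 9400, 6475 and 5270, highest at 1 h, and their summed reference signal was 22111, 18044, 17363 and 15194. Without Reg3b and Reg3g the other 10 summed to 4409, 5459, 4529 and 4152 in Cy5. Reg3b, an antimicrobial lectin of the gut, had Cy5 signals of 76, 1908, 840 and 554, highest at 1 h, whereas Saa1 was highest at 6 h. The part of these markers in the Saa1 result was not tested.

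**Figure D4:**
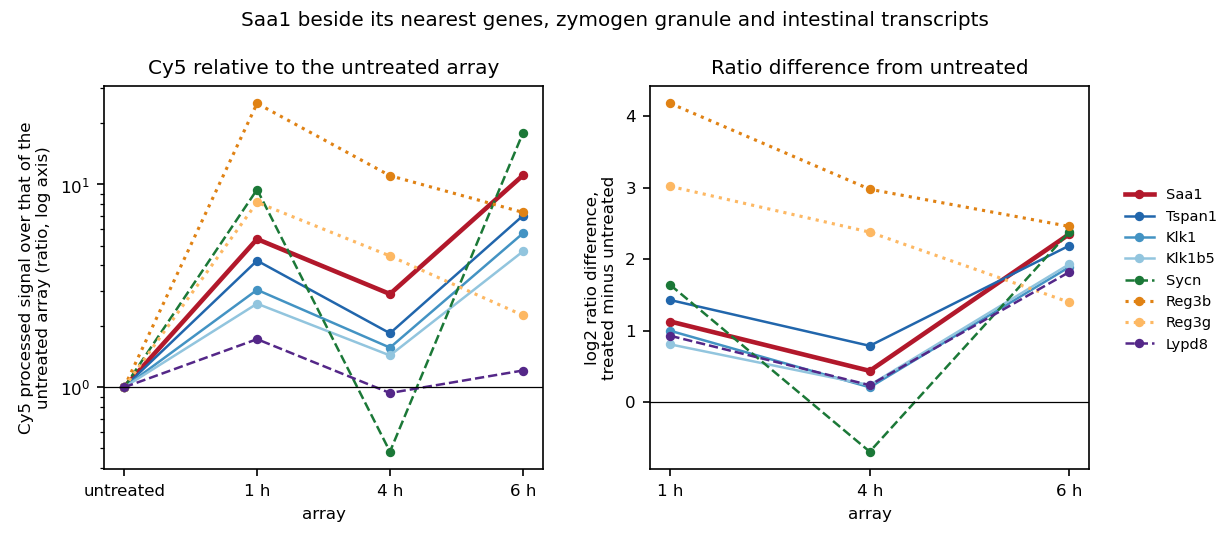
Cy5 processed signal of each gene over its own signal in untreated cells, by array (left, log axis), and log2 ratio difference from untreated cells (right) of Saa1 (thick red), its 3 nearest genes Tspan1, Klk1 and Klk1b5 (blue), Sycn, Lypd8, Reg3b and Reg3g. Saa1 and the blue genes, which were picked for nearness to Saa1, dip at 4 h and peak at 6 h, whereas Reg3b and Reg3g are highest at 1 h.

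Markers of hepatocytes and neutrophils, other sources of acute phase proteins, gave few measured ratios. Over all genes 0.376%, 0.455% and 0.921% passed the rule in either direction at 1, 4 and 6 h. Beside these shares, counts of 0 among so few markers say nothing about them. Of 10 hepatocyte markers 5 were well above background in Cy5 in untreated cells, 0 of 5 measured passed the rule at any time, and Alb, Ttr and Ahsg never stood well above background in Cy5. The summed Cy5 signal of these 10 was 2090 in untreated cells and 2159, 2682 and 2097 at 1, 4 and 6 h, most of it from Apoa1. Cyp2e1, a liver cytochrome of this list, had 12.6, 10.2, 13.2 and 76.5 and was well above background at 6 h only. Of 9 neutrophil markers with a probe 2 were measured and 0 passed the rule. Their summed Cy5 signal was 274, 271, 218 and 278. Ltf, Ngp, Mpo, Mmp8 and Cxcr2 never stood well above background in Cy5, whereas S100a8 and Elane did on all arrays and Camp in untreated cells and at 1 h. S100a9, a calcium-binding protein of neutrophils, had Cy5 signals of 3.61 in untreated cells and 21.0, 3.66 and 30 at 1, 4 and 6 h, well above background at 1 and 6 h only, as was Saa2. The part of these markers in the results of the acute phase genes was not tested.

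If the reference is a pool of the 4 groups, the mean of the 4 Cy5 over Cy3 ratios of a probe should lie near 1. Over 15008 probes measured on all arrays its median was 1.0, and 90% of them lay between 0.75 and 1.49. These are processed signals, from which the scanner software had taken off dye bias, a step that itself centres the ratios near 1. The median is therefore no check on the pool, and the range serves only to place single genes. Saa1 had 0.908, Saa3 0.855, Lcn2 1.02 and Cp 0.816, inside that range, and Hp had 0.66, below it. Klk1 had 0.893 and Sycn 0.756, inside it, whereas Klk1b5 had 0.522, Reg3b 0.498, Tspan1 0.476 and the intestinal fatty acid carrier Fabp2 0.211.

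The other acute phase proteins were mostly undetected. Values in this and the next lists are log2 ratio differences from untreated cells at 1, 4 and 6 h, in that order, to be read beside the all-gene medians of 0.06, 0.00 and -0.01. Of 29 listed genes 27 had a probe and 6 were measured, and 0 passed the rule in either direction at any time. Over all genes 0.376%, 0.455% and 0.921% did at 1, 4 and 6 h, so 0 of 6 says nothing about this list. The median of the 6 was 0.25 at 1 h, 0.17 at 4 h and 0.15 at 6 h. Saa4, the constitutive serum amyloid A, had Cy5 signals of 4.05 to 4.70 and never stood well above background in Cy5, like Orm1, Crp and Hpx. Lrg1, a leucine-rich glycoprotein, stood at 0.63, 0.45 and 0.21, with Cy5 signals of 37.9 in untreated cells and 154, 131 and 85.7 at 1, 4 and 6 h. Cfb, complement factor B, stood at 0.33, 0.37 and 0.38 and F3, tissue factor, at 0.32, 0.17 and 0.40.

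The inducers showed no member past the rule among 15 measured at 1 h and 16 at 4 and 6 h, of 22 listed. Over all genes the shares past it were 0.376%, 0.455% and 0.921% at 1, 4 and 6 h, so this count says nothing about the inducers. Il6 and Il1b, the classical inducers of the response, never stood well above background in Cy5. Tnf stood at 0.03, 0.94 and -0.24, so its highest value came at 4 h, where Saa1 had its lowest treated value. Osm, a cytokine of the interleukin 6 family, stood at 0.71, -0.09 and -0.14, with Cy5 signals of 164 in untreated cells and 491, 122 and 107 at 1, 4 and 6 h. Il6ra, the interleukin 6 receptor, stood at -0.03, -0.46 and -0.83 and Cebpa, a C/EBP factor, at 0.28, 0.61 and 0.46. The list's median was 0.10, 0.15 and -0.02.

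Among receptors and partners of the members, 12 of 17 were measured, with medians of 0.04, 0.22 and -0.13. Hmox1 degrades haem, including that of haemoglobin captured by haptoglobin. It rose by 1.37 at 6 h, after 0.07 at 1 h and 0.92 at 4 h. It was the 1 gene of this list past the rule, beside 0.456% of all genes higher at 6 h. The list was drawn up with earlier results of these data known. Slc40a1, the iron exporter that works with ceruloplasmin, stood at -0.08, 0.53 and 0.75. Tlr2, a receptor reported for serum amyloid A, stood at -0.01, 0.43 and -0.62, and Lrp1, an endocytic receptor, at 0.12, 0.35 and 0.14. The lipocalin receptor Slc22a17 had Cy5 signals of 52.7 to 62.9. Cd163, the haptoglobin receptor of macrophages, and Fpr1 and Fpr2, formyl peptide receptors, never stood well above background in Cy5.

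**Figure D5:**
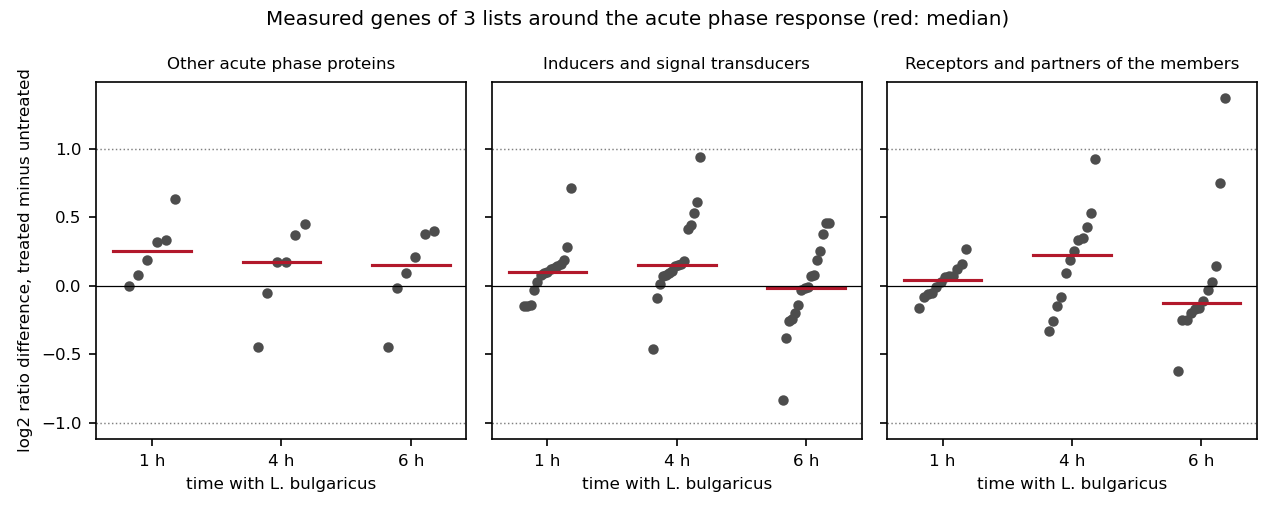
Log2 ratio difference from untreated cells at 1, 4 and 6 h for the measured genes of the lists of other acute phase proteins, inducers and signal transducers, and receptors and partners; each point is a gene, red bars are medians and dotted lines mark 1 and -1. The 1 point past a dotted line is Hmox1 at 6 h.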

How the data were processed

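On two-colour Agilent arrays the sample was labelled with Cy5 and the pooled reference with Cy3, per the labels, and dyes were never swapped. Agilent Feature Extraction 10.5.1.1 is named in the submitters' processing notes. The deposited files give intensity values: median spot and local background brightness, and processed signals, with errors, from which that software had taken off background and dye bias. They also give the log10 ratio of Cy5 over Cy3, and the deposited table of the series holds the same log10 ratio within 0.00496. Depth has no meaning here; the number of arrays limits the precision.

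Background correction of the medians used normexp with an offset of 50, and loess within each array followed, with control and outlier spots at weight 0 (limma 3.58.1, R 4.3.3). Cy5 or Cy3 alone means values after loess and Aquantile. Outlier spots (1.55% to 1.84%) were left out. Accessions named 27655 of 39429 probes through a RefSeq table of GRCm38.p6; probe coordinates, on mm9, are left out. Measured probes of a gene were averaged. Replicate-spot SDs are of the 50 probes with 10 spots nearest in signal. Signals of lists sum probes unflagged on all arrays. Named genes were all members, up to 4 per list by largest difference, Il6, Il1b, Tnf, and the 3 nearest genes of a member past the rule; marker genes and others named beside them were chosen after their values were seen. A gene that this rule names is not reported here. Members, lists and markers were chosen with earlier results of these data known. No column of values was left unassigned. The steps were tested on simulated data. Alternatives changed the background correction, normalization, source of values, filters, probe choice and rule of size. Tables and plots used Python 3.11.15, numpy 2.4.6, pandas 2.3.3, Biopython 1.88 and matplotlib 3.10.9.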

Additional observations from a re-analysis of the deposited data

How the results depend on the processing

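Over 12 alternatives the 15 member differences gave 180 values, of which 118 moved by less than the replicate-spot SD, 62 moved by more, and 0 differences past the rule changed sign. Aquantile left the ratios as they were. A filter on Cy5 alone, outlier spots kept and the brightest probe could hardly move values, as each measured member had 1 unflagged measured probe. Dropping the filter on dim probes changed Cp alone, and the deposited table repeats the scanner software's ratios. Many of the 118 were thus fixed in advance and are no measure of robustness. The count of members past the rule at 1 h was 1, and became 0 with a rule of 3-fold and 0 with no normalization within the array, where Saa1 stood at 0.88. At 6 h the count of 1 became 2 in the scanner software's processed signals and 2 in the deposited table, where Cp reached -1.0; at 4 h it was 0 under every alternative run. Saa1 ranged from 0.88 to 2.06 at 1 h, 0.44 to 0.96 at 4 h and 2.19 to 3.25 at 6 h. Scaling by the array median instead of loess put the all-gene median of the 1 h differences at 0.86, and no normalization put it at -0.32; relative to the all-gene median Saa1 ranged from 1.07 to 1.64, 0.43 to 0.96 and 2.35 to 3.26. Relative to the all-gene median, Lcn2 at 1 h was 0.59 in Cy5 alone and below 0 under the other alternatives, at -0.20 with the array median, where its own value was 0.66. At 4 and 6 h Lcn2 was above 0 in Cy5 alone (0.56 and 0.47) and below 0 otherwise. The Saa2 bound at 6 h was 0.34 and reached 1.42 (log2) in processed signals.

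Genes past the rule at 1 h numbered 34 higher and 5 lower, against 117 and 42 in processed signals, 3030 and 0 with the array median, 17 and 361 with no normalization and 39 and 70 in Cy5 alone. At 4 h they numbered 25 and 22, against 144 and 99 in processed signals, 22 and 34 with no normalization and 49 and 118 in Cy5 alone. At 6 h they numbered 47 and 48, against 229 and 195, 32 and 174, and 159 and 217 under the same alternatives, and 41 and 110 with the array median. A rule of 1.5-fold called 1.76%, 2.75% and 5.41% of genes at 1, 4 and 6 h, and a rule of 3-fold called 0.135%, 0.116% and 0.262%; causes were not tested. No paired analysis was possible because each group has 1 array. For the same reason no array could be left out.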
